A study of Mus musculus with 16 samples.

Results

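Olfr16, also known as MOR23, is a mouse olfactory receptor gene, and its signal is described here on all 16 arrays of a study of odor-evoked activity in olfactory sensory neurons. The gene was chosen by its symbol, with earlier results of these data known, so its ranks below are descriptions. That symbol is carried by 1 array feature (TC0100001625.mm.2, Entrez gene 18313, chromosome 1) out of 19572 features with a single gene symbol, 1084 of them intact olfactory receptors. Each mouse of the study was a C57BL/6 animal of either sex, aged 7 to 12 weeks, that carried the S100a5-tauGFP reporter, in which the promoter of S100a5 drives a green fluorescent protein in olfactory mucosa. The 24 mice were kept singly under an airflow of 3.1 L/min for 40 h. From 26 h onward they received either a mixture of undecanal and bourgeonal (odor) or filtered air (vehicle), in pulses of 10 s every 20 min. The dissociated mucosa of 3 mice was pooled and sorted on the reporter into a fraction titled GFP− and a fraction titled GFP+. The 4 odor pools therefore gave 4 titled GFP− and 4 titled GFP+ arrays, and the 4 vehicle pools likewise. Every group carried the reporter and came from the clean air chambers, and the 2 odorants were given only together.

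The fractions are called by the sample titles because the labels disagree: the cell type given for each of the 16 samples states the opposite GFP status. S100a5, the activity-dependent gene whose promoter drives the reporter, stood at 17.08, 16.46, 16.56 and 16.51 on the odor arrays titled GFP− and at 14.65, 15.75, 15.48 and 15.48 on the odor arrays titled GFP+ (log2 signal, replicates 1 to 4). In vehicle pools it averaged 16.37 ± 0.09 in titled GFP− and 15.38 ± 0.13 in titled GFP+ arrays (SD, n = 4 each). Every one of the 8 pools thus had more S100a5 signal in titled GFP− than in titled GFP+ cells, by 1.31 ± 0.20 in odor pools (log2 difference ± SE, limma adjusted p = 1.6e-04) and by 1.00 ± 0.20 in vehicle pools (adjusted p = 0.0019). The vehicle call was lost on arrays centred on the median of the receptors (0.72, adjusted p = 0.111). All differences between fractions below are titled GFP− minus titled GFP+, so their signs follow the titles. Which fraction held the cells with the reporter on depends on which label is right.

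Olfactory receptors are G protein-coupled receptors at the surface of olfactory sensory neurons (OSNs), and each mature OSN expresses a single allele of a single receptor gene. An odorant that binds the receptor opens ion channels through cyclic AMP, and S100a5 is switched on in OSNs that have been active. The reporter is used to separate OSNs with recent activity from the rest. Olfr16 is known as a receptor for the floral aldehyde lyral, and bourgeonal is an aromatic aldehyde that also smells floral, whereas undecanal is a straight-chain fatty aldehyde. In RNA of sorted cells, a larger share of cells that express Olfr16 and more Olfr16 RNA per cell cannot be told apart.

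RefSeq places Olfr16 on chromosome 1, where the next intact receptor after it is Olfr1408, a relative that carries the family name MOR267-4 and whose signal was among the most like that of Olfr16. The 250 bases upstream of both gene starts are shown because these neighbours moved together on the arrays. Capitals mark matches to TAATNA, the core of the homeodomain-like site of receptor promoters, searched on both strands. Olfr16 (GRCm38.p6, chr1:172956518-172956767, plus strand) has 3 matches, and Olfr1408 (GRCm38.p6, chr1:173137335-173137584, minus strand) has 0.
Olfr16: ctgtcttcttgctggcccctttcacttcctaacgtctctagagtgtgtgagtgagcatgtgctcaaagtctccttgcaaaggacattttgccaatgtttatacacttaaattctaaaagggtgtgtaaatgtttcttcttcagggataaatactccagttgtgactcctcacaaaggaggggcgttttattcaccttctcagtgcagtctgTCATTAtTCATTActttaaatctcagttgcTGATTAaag
Olfr1408: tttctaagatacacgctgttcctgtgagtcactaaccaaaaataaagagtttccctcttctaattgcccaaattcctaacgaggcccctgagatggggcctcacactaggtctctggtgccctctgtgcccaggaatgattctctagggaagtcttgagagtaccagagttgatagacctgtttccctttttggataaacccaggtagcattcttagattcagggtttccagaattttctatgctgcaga
The motif occurs in the windows of 594 of 925 intact receptors on the array that RefSeq lists (64.2%), 131 of them with 3 or more matches, and in 6691 of 27025 windows of all genes (24.8%). A match says only that these letters are present.

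Of all features, Olfr16 had the largest rise of its fraction difference from vehicle to odor pools. This rise did not pass the test over all features (limma adjusted p = 0.9997), and no feature did. In vehicle pools its signal was lower in titled GFP− than in titled GFP+ cells, by 4.85-fold as measured, and in odor pools it was higher by 2.31-fold, although the odor difference alone did not pass the threshold (adjusted p under 0.05). The vehicle cells titled GFP− were above background on 2 of 4 arrays and the odor cells titled GFP+ on 3 of 4, and the differences use the values as measured. On odor arrays titled GFP−, Olfr16 measured 12.05, 12.91, 12.02 and 10.04 in replicates 1 to 4 (log2 signal). The odor arrays titled GFP+ measured 9.29, 10.28, 11.13 and 11.49. Replicates 1 to 3 of the odor pools were high in the fraction titled GFP−, whereas replicate 4 had the lowest value of its group, below the value of its own titled GFP+ array, so the odor groups overlapped.

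Vehicle arrays titled GFP− measured 9.48, 8.72, 10.90 and 9.14. Vehicle arrays titled GFP+ measured 11.71, 12.11, 11.22 and 12.31. Every vehicle array titled GFP+ lay above every one titled GFP−, with replicate 3 the closest pair. Group means were 11.75 ± 1.21 for odor titled GFP−, 10.55 ± 0.98 for odor titled GFP+, 9.56 ± 0.95 for vehicle titled GFP− and 11.84 ± 0.48 for vehicle titled GFP+ (log2 signal, SD, n = 4 each).

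In the order of these levels, no difference between neighbouring groups passed the threshold. The pair at the top, odor titled GFP− and vehicle titled GFP+, differed by 0.08 ± 0.58 (SE, limma adjusted p = 0.937). Odor titled GFP− exceeded odor titled GFP+ by 1.21 ± 0.58 (adjusted p = 0.152), and odor titled GFP+ exceeded vehicle titled GFP− by 0.99 ± 0.58 (adjusted p = 0.232).

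Olfr16 was above background on most arrays. The signal exceeded the 95th percentile of the 5222 negative control entries of the same array on 4 of 4 odor titled GFP−, 3 of 4 odor titled GFP+, 2 of 4 vehicle titled GFP− and 4 of 4 vehicle titled GFP+ arrays. The exceptions were odor titled GFP+ replicate 1 and vehicle titled GFP− replicates 2 and 4. With these 3 values raised to that line, a setting added after the values were seen, the fraction difference was 0.81 in odor and −1.93 in vehicle pools. The odor minus vehicle difference of these 2 values was then 2.74. Olfr16 exceeded the highest of 23 background sets grouped by GC content on 16 of 16 arrays.

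**Figure D1:**
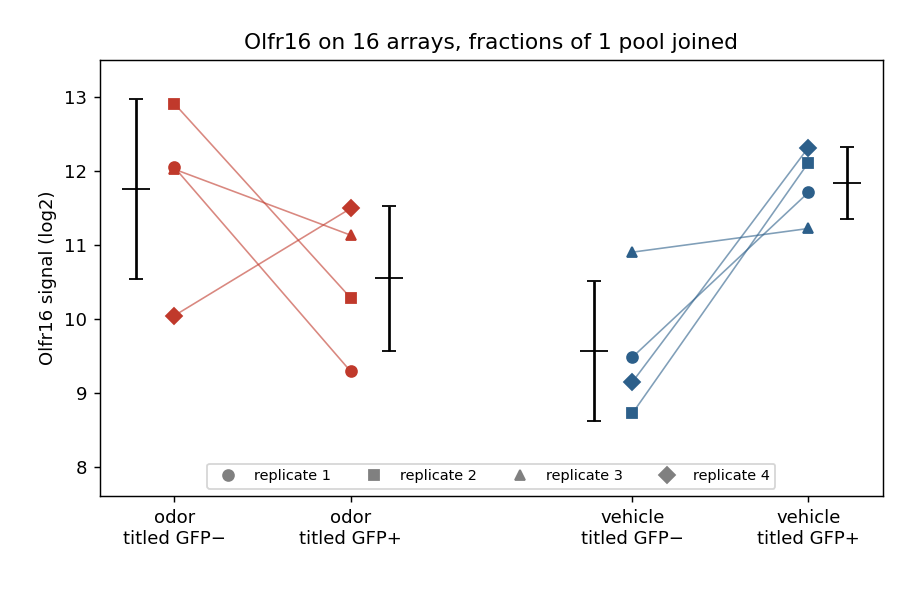
Olfr16 signal (log2, vertical axis) on 16 arrays in 4 groups, with lines joining the 2 fractions of a pool, marker shapes giving the replicate and bars giving the mean ± SD of 4 arrays. Lines of odor replicates 1 to 3 fall toward titled GFP+, whereas the line of odor replicate 4 and those of all 4 vehicle pools climb toward it.

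In vehicle pools the fraction difference of Olfr16 was −2.28 ± 0.58 on the log2 scale (SE; 95% confidence interval −3.51 to −1.04; limma adjusted p = 0.0118). It counted among the 9.82% of all features called lower in titled GFP− cells, and groups that do not overlap in this direction were found for 11.1% of features. Counting both directions, 16.9% of features were called. Receptors as a class often differed here, with 362 called higher and 222 lower of 1084, and Olfr16 ranked 150th from the lowest difference. The call was lost when vehicle replicate 1, 2 or 4 was left out (differences of −2.29, −1.91 and −1.98, adjusted p = 0.0548, 0.0875 and 0.0810). An exact sign-change test over the 4 pools gave p = 0.125, the smallest value that 4 pools allow.

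In odor pools the fraction difference was 1.21 ± 0.58 (95% confidence interval −0.03 to 2.44; adjusted p = 0.152; exact sign-change p = 0.375), where 12.2% of all features were called higher and 22.2% in either direction. Among receptors, 408 were called higher and 205 lower, and Olfr16 ranked 394th from the highest difference. Leaving out odor replicate 4 brought the difference to 2.09 (adjusted p = 0.0125). Centring each array on its median over all features brought it to 1.51 (adjusted p = 0.0387).

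The difference between these differences, the interaction, asks whether the fraction difference depends on the odor. For Olfr16 it was 3.48 ± 0.83 (95% confidence interval 1.73 to 5.23). This was the highest of all 19572 features. The next were Olfr874 at 1.81 ± 1.08 and Olfr945 at 1.78 ± 0.87, although Olfr874 exceeded the negative control line on 4 of 16 arrays and Olfr945 on 0. Olfr1408, above that line on 15 arrays, followed among receptors at 1.62 ± 0.54. The interaction of Olfr16 did not pass the threshold over all features (limma adjusted p = 0.9997). By unadjusted p it ranked 6th of all features and 2nd among receptors, behind Olfr774 (interaction 1.55 ± 0.36). No feature of 19572 passed, and 739 (3.78%) had an unadjusted p under 0.05, with 18 of 1084 receptors among them (1.66%). An exact permutation test of the treatment labels over the 8 pool differences gave a 2-sided p of 0.0571 for Olfr16, where the smallest possible is 0.0286. The titles do not state that odor and vehicle pools of the same replicate number belong together. Taken within these numbers, the interaction was 4.98, 6.01, 1.21 and 1.72 and thus above 0 in 4 of 4. An exact sign-change test over these 4 values, added after the data were seen, gave p = 0.125, the smallest it can give. Olfr16 kept rank 1 of 1084 receptors under every one of the 15 other settings tried, although under the background filter only 588 receptors were ranked. The prior, block and filter settings leave each difference as it is, and centring the arrays shifts the interaction of every feature by the same amount. None of these settings could lower this rank. Only renewed quantile normalization and leaving out a pool could.

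**Figure D2:**
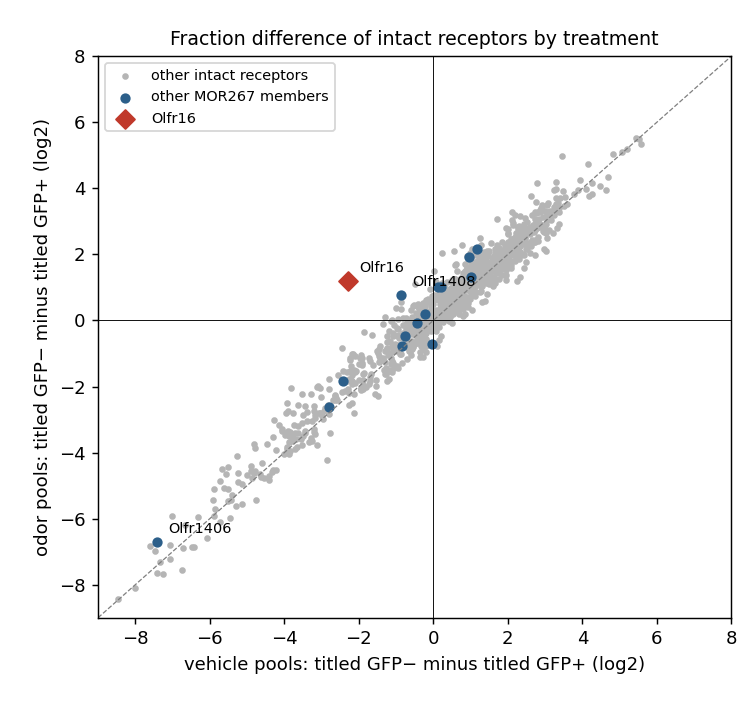
Fraction difference (titled GFP− minus titled GFP+, log2) of 1084 receptors in odor pools (vertical axis) and vehicle pools (horizontal axis), with the dashed line marking equal differences. Most receptors lie along the dashed line, and Olfr16 lies in the upper left quadrant at 1.21 in odor and −2.28 in vehicle pools.

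Such a turn was rare among receptors. A lower titled GFP− signal in vehicle pools with a higher one in odor pools was seen for 61 of 1084 receptors at any size, the opposite turn for 15, and the same direction in both treatments for 1008. With both differences beyond 0.5 on the log2 scale there were 3 such receptors, Olfr16, Olfr1408 and Olfr669, and 0 with the opposite turn. Beyond 1 there was Olfr16 alone. These sizes were chosen after the values were seen, and the counts are a description.

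Compared within a fraction, Olfr16 was higher in odor than in vehicle cells titled GFP− and lower in odor than in vehicle cells titled GFP+. The first difference was 2.19 ± 0.58 (95% confidence interval 0.96 to 3.43; limma adjusted p = 0.999). By size it was the highest of all 19572 features, ahead of Pcdh10 (1.74 ± 0.31), which encodes an activity-dependent protocadherin of OSNs, and of the receptor Olfr1221 (1.42 ± 0.69). By p it ranked 1st among receptors and 19th overall. No feature passed, 805 (4.11%) had an unadjusted p under 0.05, and 26 receptors (2.40%) did. Odor replicate 4, at 10.04, lay below the vehicle maximum of 10.90, so the groups overlapped by that array, and the exact permutation p was 0.0571 (smallest possible 0.0286). Within replicate numbers the odor minus vehicle difference was 2.57, 4.19, 1.12 and 0.90, above 0 in 4 of 4 (exact sign-change p = 0.125, the smallest possible).

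In cells titled GFP+ the odor difference of Olfr16 was −1.29 ± 0.58 (95% confidence interval −2.53 to −0.05; limma adjusted p = 0.468). It ranked 11th from the lowest of 1084 receptors and 15th from the lowest of 19572 features. Here too no feature passed, with 2016 (10.3%) at an unadjusted p under 0.05 and 55 receptors (5.07%) among them. The groups overlapped by odor replicate 4 at 11.49, which lay above vehicle replicate 3 at 11.22 (exact permutation p = 0.0571). Within replicate numbers the difference was −2.42, −1.83, −0.09 and −0.82, below 0 in 4 of 4 (exact sign-change p = 0.125, the smallest possible). Receptors as a class had a median difference of −0.22 in this fraction, against −0.08 in cells titled GFP−.

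**Figure D3:**
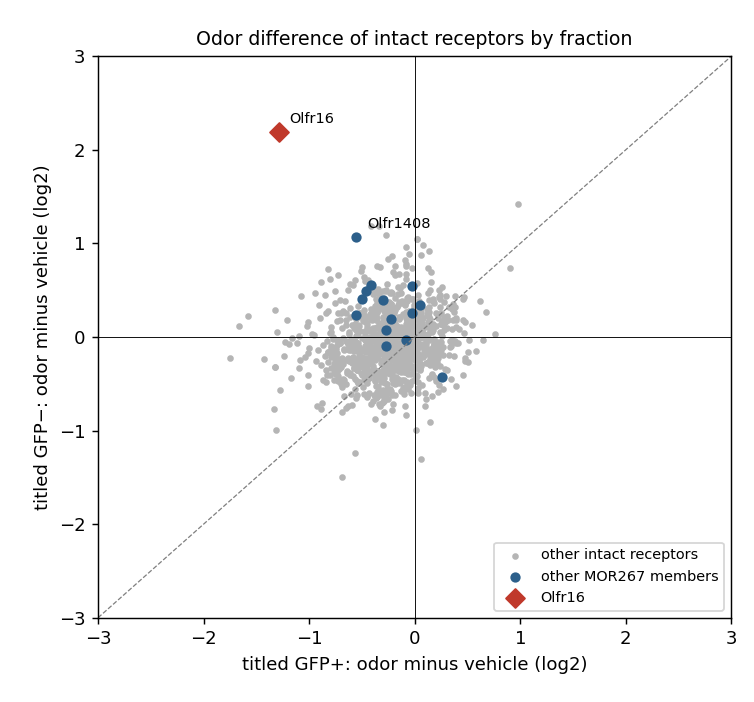
Odor minus vehicle difference (log2) of 1084 receptors in cells titled GFP− (vertical axis) and titled GFP+ (horizontal axis). Olfr16, at 2.19 and −1.29, lies apart from the other receptors in the upper left, with Olfr1408 at 1.07 and −0.55 as the nearest relative.

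The opposite differences of Olfr16 cancelled in part. Averaged over both treatments, its fraction difference was −0.54 ± 0.41 (95% confidence interval −1.41 to 0.34; limma adjusted p = 0.317), in a comparison in which 35.6% of features were called. The mean of its 2 fractions differed by 0.45 ± 0.41 between odor and vehicle pools (95% confidence interval −0.42 to 1.33; limma adjusted p = 0.746). Pool means were 10.67, 11.60, 11.58 and 10.77 in odor pools and 10.59, 10.41, 11.06 and 10.73 in vehicle pools. These ranges overlapped, and the exact permutation p was 0.2. This mean weights both fractions equally and does not give the level in the whole mucosa, since the share of cells sorted into each was not used here. In that comparison 1 of 19572 features was called (0.00511%), the protocadherin gene Pcdh10, a call that was lost without odor replicate 2 or 4 or vehicle replicate 2, 3 or 4, and on receptor-median arrays. On vehicle arrays Pcdh10 exceeded the negative control line on 1 of 4 titled GFP− and 0 of 4 titled GFP+.

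Pool by pool, the fraction difference of Olfr16 was 2.75, 2.62, 0.89 and −1.45 in odor replicates 1 to 4. In vehicle replicates 1 to 4 it was −2.23, −3.39, −0.32 and −3.17. Odor replicate 4 was the single odor pool with the vehicle direction, and vehicle replicate 3 the vehicle pool nearest to 0. The same fraction difference of S100a5 in odor replicate 4 was 1.03, within the 0.71 to 2.43 of the other odor pools, and the median over receptors was 0.52, within their 0.48 to 0.80. Olfr16 had a larger difference than most receptors in odor replicates 1 and 2, where 188 and 120 of 1084 receptors exceeded it. In odor replicate 3, 465 exceeded it, and in odor replicate 4, 883. In the 4 vehicle pools, 676 to 974 did.

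The spread of Olfr16 within groups was wide for a receptor. Its residual SD was 0.94, against a median of 0.60 over receptors and 0.27 over all features, and 134 of 1084 receptors had a larger one. The width of its confidence intervals comes from 4 arrays per group and from the moderated SD of limma. That SD was 0.83, below the residual SD.

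**Figure D4:**
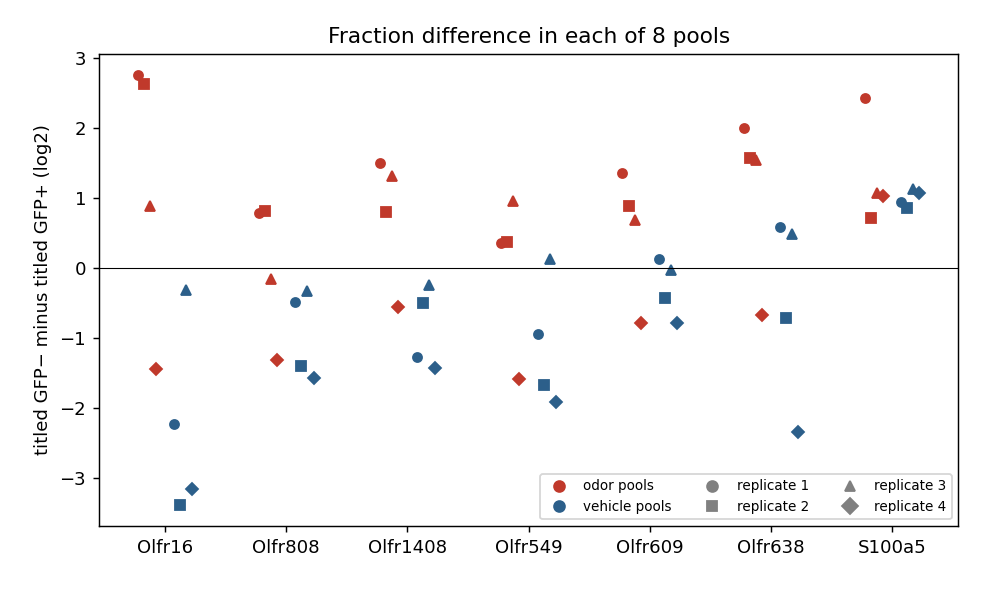
Fraction difference (titled GFP− minus titled GFP+, log2) in each of 4 odor and 4 vehicle pools for Olfr16, the 5 receptors most like it over the 16 arrays, and S100a5, with marker shapes giving the replicate. Odor replicate 4 lies below 0 for Olfr16 and for each of the 5 receptors, while S100a5 lies above 0 in all 8 pools.

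The 5 receptors whose signals were most like that of Olfr16 over the 16 arrays were Olfr808 (Pearson r = 0.79), Olfr1408 (0.78), Olfr549 (0.73), Olfr609 (0.69) and Olfr638 (0.67). Over all receptors r had a median of −0.03, with 95% of them between −0.39 and 0.47, and 3 receptors exceeded 0.7. The arrays are 8 pools in 2 fractions and share the sort, so these are descriptions. On arrays centred on the receptor median the same 5 receptors led, and 2 of the 5, Olfr808 and Olfr609, did so on deviations from the group means. In odor replicate 4 the fraction differences of these 5 ranged from −1.60 for Olfr549 to −0.56 for Olfr1408, all below 0 as for Olfr16. In odor replicate 1 they ranged from 0.36 for Olfr549 to 2.00 for Olfr638. Olfr638 exceeded the negative control line on 3 of 16 arrays, and both its values in that pool, 9.55 and 7.55, lay below it. The 5 receptors were picked by r on these same arrays, so pool differences that resemble those of Olfr16 are built into the choice.

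Tnmd, Ccdc69 and Gbp8 also ranked among the 5 most similar features (r = 0.77, 0.76 and 0.73). Tnmd encodes the tendon glycoprotein tenomodulin and Gbp8 an interferon-induced guanylate-binding protein. None of the 3 exceeded the negative control line on any array, so their likeness is in background signal. The lowest receptors were Olfr1385 (r = −0.64), Olfr59 (−0.58) and Olfr5 (−0.52).

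Olfr1408 measured 11.11, 12.13, 12.07 and 10.77 on odor arrays titled GFP− and 9.61, 11.34, 10.77 and 11.34 on odor arrays titled GFP+ (log2 signal). On vehicle arrays it measured 9.92, 10.94, 10.61 and 10.35 in titled GFP− and 11.19, 11.44, 10.85 and 11.78 in titled GFP+ cells. As for Olfr16, odor replicate 4 was the lowest array of the odor titled GFP− group, and the groups overlapped in both treatments. The fraction difference was 0.76 ± 0.38 in odor pools (adjusted p = 0.167) and −0.86 ± 0.38 in vehicle pools (adjusted p = 0.137). Its interaction was 1.62 ± 0.54, the 4th highest among receptors, and its odor difference in titled GFP− cells was 1.07 ± 0.38. Neither passed over all features (limma adjusted p = 0.9997 and 0.999). Cross-hybridization of the Olfr16 and Olfr1408 probes was not tested, since probe sequences were not used here.

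The receptors that follow Olfr1408 in RefSeq order differed in pattern. After Olfr1408 lie Olfr1406 and Olfr218. Olfr1406 averaged 6.04 in titled GFP− and 12.75 in titled GFP+ cells of odor pools, and 5.65 and 13.05 in those of vehicle pools. It lay below the negative control line on every array titled GFP−, which makes it at least 7.43-fold higher in titled GFP+ cells of odor pools and at least 10.9-fold higher in those of vehicle pools. That bound sets the mean of the brighter group against the dimmest features above background on the dim arrays. Olfr218 exceeded the negative control line on 1 of 16 arrays, and its difference was 1.02 ± 0.29 in odor pools (adjusted p = 0.0177) and 0.12 ± 0.29 in vehicle pools (adjusted p = 0.811). The odor call of Olfr218 was lost on arrays centred on the receptor median (0.55, adjusted p = 0.293) and in the fit of the 2 odor groups alone (adjusted p = 0.0529).

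No intact receptor lies close before Olfr16. RefSeq lists the serum amyloid P gene Apcs and noncoding or pseudogene entries there, and the nearest receptors on that side, Olfr12, Olfr1410 and Olfr1411 of the family MOR208, lie 1172 RefSeq genes away or more. Of these, Olfr1411 stayed below the negative control line on all 16 arrays. Olfr12 exceeded it on 3 arrays and Olfr1410 on 14, and the differences of Olfr1410 did not pass, at 1.08 ± 0.40 in odor pools (adjusted p = 0.0643) and 0.96 ± 0.40 in vehicle pools (adjusted p = 0.116).

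Olfr16 belongs to the receptor family MOR267 by its RefSeq synonym, with 14 other members on the array, 8 of them on chromosome 1. In odor pools 5 of the 14 were called higher and 3 lower in titled GFP− cells, where 12.2% and 9.98% of all features were. Of the 1083 intact receptors other than Olfr16, 408 were called higher there and 205 lower. In vehicle pools 2 of the 14 were called higher and 3 lower, where 7.05% and 9.82% of all features were. Of the 1083 receptors, 362 were called higher and 221 lower in vehicle pools. Olfr248 and Olfr509 exceeded the negative control line on no array and are included in all counts of the family. The interaction of the 14 ranged from −0.68 for Olfr63 to 1.62 for Olfr1408, with a median of 0.49 and 13 of 14 above 0. Over all other receptors the median was 0.16, with 63.8% above 0. None of the family passed the test of the interaction, for which 0% of all features were called. Members of a family share sequence, so their signals are not independent of each other.

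Olfr2, known as the receptor I7 for octanal and other straight-chain aldehydes, was measured too. Its signal stayed below the negative control line on all 16 arrays, averaging 7.78 ± 0.48 in odor titled GFP−, 8.16 ± 0.96 in odor titled GFP+, 7.86 ± 0.45 in vehicle titled GFP− and 8.11 ± 0.77 in vehicle titled GFP+ arrays (SD, n = 4 each). A change of Olfr2 was not detectable at this signal.

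Genes that carry the receptor's signal did not follow Olfr16. Of 15 genes of odorant transduction and receptor trafficking, 4 were called higher in titled GFP− cells of odor pools and 3 in those of vehicle pools, 0 were called lower, and 0 passed the interaction. Their median differences were 0.21 in odor and 0.24 in vehicle pools, against 0.14 and 0.13 over all features, of which 12.2% and 7.05% were called higher. On arrays centred on the receptor median 0 of the 15 were called in either treatment, and on arrays centred on the feature median 14 in odor and 15 in vehicle pools. With 1 pool left out 1 to 3 were called in each treatment. Pde1c, the calcium-dependent phosphodiesterase of OSN cilia, was higher by 0.71 ± 0.10 in odor pools (adjusted p = 8.9e-05) and by 0.57 ± 0.10 in vehicle pools (adjusted p = 7.2e-04), which on receptor-median arrays became 0.24 (adjusted p = 0.535) and 0.30 (adjusted p = 0.707). Adcy3, the adenylyl cyclase of the pathway, and Ano2, its chloride channel, were called higher in odor pools at 0.30 ± 0.10 (adjusted p = 0.0399) and 0.41 ± 0.10 (adjusted p = 0.0104), but turned to −0.17 and −0.064 on arrays centred on the receptor median. Cnga2, the main subunit of the cyclic nucleotide-gated channel, differed by 0.20 ± 0.11 in odor pools (adjusted p = 0.197) and by 0.20 ± 0.11 in vehicle pools (adjusted p = 0.201).

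All 7 activity-dependent OSN genes listed were called higher in titled GFP− cells of both treatments, with medians of 1.09 in odor and 1.18 in vehicle pools. In odor pools 12.2% of all features were called higher, and in vehicle pools 7.05%. On arrays centred on the receptor median 2 of the 7 were still called in odor and 3 in vehicle pools, and leaving out 1 pool left 5 to 7 in odor and 6 to 7 in vehicle pools. Plcxd3, one of the 7, exceeded the negative control line on 0 of 16 arrays. Pcdh10, another, exceeded it on 4 of 4 odor titled GFP−, 1 of 4 odor titled GFP+, 1 of 4 vehicle titled GFP− and 0 of 4 vehicle titled GFP+ arrays. Kirrel2, an adhesion molecule of OSN axons, was higher by 0.90 ± 0.26 in odor pools (adjusted p = 0.0204) and 1.18 ± 0.26 in vehicle pools (adjusted p = 0.0038). Its odor call was lost without odor replicate 1, 3 or 4 (adjusted p = 0.0714, 0.0581 and 0.0687) and on receptor-median arrays (0.42, adjusted p = 0.499), where the vehicle call was lost too (0.91, adjusted p = 0.206). The list was chosen with earlier results of these data known, and its direction is no independent evidence. None of the 7 passed the interaction, with a median of −0.12, whereas Olfr16 had 3.48.

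Markers of other cells also differed between the fractions that Olfr16 is compared across, where 9.98% of all features were called lower in odor and 9.82% in vehicle pools. All 9 neutrophil markers were called lower in titled GFP− cells of both treatments, with a summed level of 8.63 to 9.80 on odor arrays titled GFP− and 18.42 to 19.46 on odor arrays titled GFP+ (log2 of the summed signals). On vehicle arrays it was 8.71 to 9.20 in titled GFP− and 18.46 to 19.73 in titled GFP+. All 8 other leukocyte markers measured were called lower as well. None of these 17 exceeded the negative control line on any array titled GFP−. Of 10 immature OSN markers 7 were called lower in both treatments, and of 8 sustentacular (supporting) cell markers 6 in odor and 5 in vehicle pools. Without odor replicate 2 the sustentacular count in odor pools was 3, without odor replicate 3 it was 4, and the other counts of lower markers moved by less than 1.5 times with any 1 pool left out. Of 9 mature OSN markers, 3 were called higher in odor and 2 in vehicle pools, where 12.2% and 7.05% of all features were, and Omp, which marks mature OSNs, differed by 0.12 ± 0.10 in both. On receptor-median arrays 0 of the 9 were called, and on feature-median arrays 8 and 9, while leaving out 1 pool gave 1 to 2 in odor and 0 to 2 in vehicle pools. On feature-median arrays the immature OSN markers called lower numbered 4 in odor and 5 in vehicle pools, with 1 and 2 called higher. The 2 dorsal zone, 3 ventral zone and 3 measured sex-linked genes had 0 calls in odor pools and 0 in vehicle pools, and averaged over both treatments 1 ventral zone gene was called higher. No marker of these lists passed the interaction, and their part in the fraction differences of Olfr16 was not tested.

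Scaling the arrays moved both fraction differences of Olfr16 and hardly moved the interaction. Centring on the median of all features added 0.30 to every fraction difference in odor and 0.40 in vehicle pools, and centring on the receptor median shifted them by −0.47 and −0.27. Relative to the receptor median, Olfr16 differed by 0.73 ± 0.54 in odor pools (adjusted p = 0.395) and by −2.55 ± 0.54 in vehicle pools (adjusted p = 0.00234), and its interaction was 3.28 ± 0.77.

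**Figure D5:**
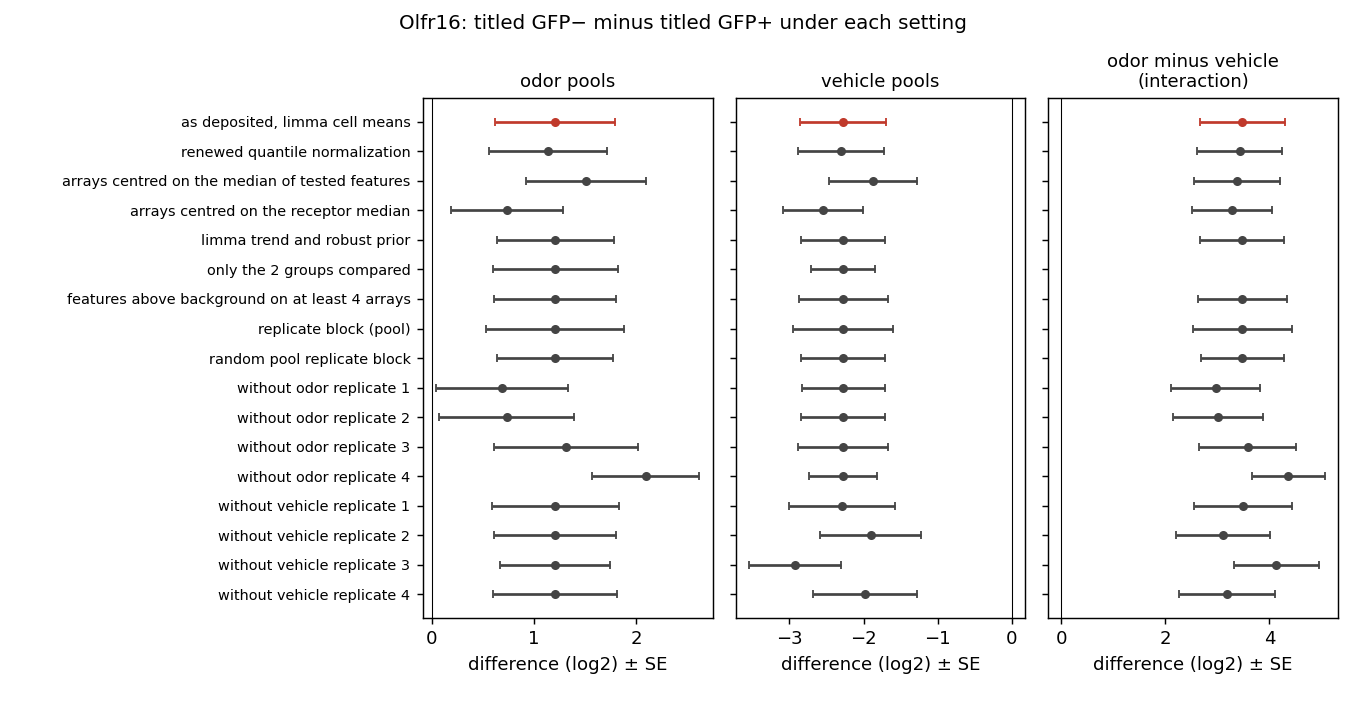
Fraction difference of Olfr16 in odor pools (left), in vehicle pools (middle) and their difference, the interaction (right), as log2 values ± SE under each setting, with the values as deposited on top. All interactions lie between 2.97 and 4.37, and the odor difference runs from 0.69 without odor replicate 1 to 2.09 without odor replicate 4.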

How the data were processed

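Gene expression was measured with Clariom S arrays, a 1-colour Affymetrix design, in 16 sorted fractions from 8 pools of 3 mice. Between 50 and 100 ng of RNA per sample was labelled with biotin, per the labels' protocols. From their range, 1.775 to 19.3, the deposited values were taken to be log2 signals. They were made with Affymetrix Expression Console, per the submitters' processing notes, and its version, background correction, normalization and summarization are not given in the sources used here. Each array holds 28846 entries, of which 19572 carry 1 gene symbol and were tested. Arrays of a group correlated at r = 0.979 to 0.995, and for arrays their number limits the precision.

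The main test was limma 3.58.1 in R 4.3.3, with 1 mean per titled group over all 16 arrays and no covariate, 2-sided, with Benjamini-Hochberg adjustment over 19572 features and a threshold of 0.05, after tests on simulated data. Single values were also tested with exact permutation tests. A feature counts as above background where it exceeds the 95th percentile of the negative controls on its array.

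Replicate numbers were used to pair the samples in the pool differences, the exact tests built on them and the block settings. The main limma test did not use this pairing, so its SEs and confidence intervals are unpaired. With a block for each pool the SE of the Olfr16 vehicle difference was 0.67 and that of its interaction 0.95. Both fractions of a number come from the same mice, and deviations from group means correlated at 0.096 to 0.245 in odor and 0.188 to 0.337 in vehicle pools. Odor and vehicle arrays of a number correlated at 0.178 to 0.379 (titled GFP−) and 0.147 to 0.547 (titled GFP+). Those of different numbers correlated at −0.251 to 0.141 (titled GFP−) and −0.497 to 0.200 (titled GFP+). The titles do not say that odor and vehicle pools of a number were handled together.

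Named genes were Olfr16, S100a5, Olfr2, the listed genes, the 5 features and 5 receptors most like Olfr16 and the 3 least like it, up to 3 neighbouring receptors per side, and those next by interaction. Protein sequences were not used here, so the MOR267 synonyms of RefSeq stood in for protein identity, a change made after the values were seen. Pcdh10, Olfr1221, Olfr669 and Olfr774 were named after their values were seen. The gene and the lists were chosen with earlier results of these data known. Promoter windows are those of RefSeq on GRCm38.p6, which held both genes. Alternatives were other scalings, priors and filters, blocks, and leaving out each pool in turn. Raising Olfr16 values to the negative control line, and exact sign changes within replicate numbers, were added after the data were seen.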

Additional observations from a re-analysis of the deposited data

Results flagged for a closer look

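S100a5 on the odor array titled GFP− of replicate 1 measured 17.08 (log2 signal), far above the other arrays of its group at 16.46 to 16.56. It was the 1 group of 24 tested in which a single array stood this far from the rest, and chance gives about 1 in 20. The same pool had an Olfr16 fraction difference of 2.75, and without it the interaction of Olfr16 was 2.97.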

How the results depend on the processing

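The direction of every Olfr16 difference held under every alternative, although priors, filters and blocks leave the differences themselves unchanged. The vehicle fraction difference ranged from −2.93 to −1.91 with 1 pool left out, and missed the threshold at −2.29, −1.91 and −1.98 without vehicle replicate 1, 2 or 4. The odor fraction difference ranged from 0.69 to 2.09 with 1 pool left out, and passed at 2.09 without odor replicate 4 and at 1.51 with arrays centred on the feature median. The interaction ran from 2.97 to 4.37 (adjusted p from 0.375 to 0.9999), and the odor differences from 1.81 to 2.76 in titled GFP− and from −1.60 to −0.87 in titled GFP+ cells. With the replicate block the vehicle difference had an adjusted p of 0.0405, the odor difference 0.214 and the interaction 0.910, and the block changed no Olfr16 call. With the 3 Olfr16 values below background raised to the line the interaction was 2.74 (exact p = 0.0571). Averaged over both treatments, the fraction difference ran from −0.91 on receptor-median arrays to −0.09 without odor replicate 4, and passed under no setting.

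Counts of called features moved more. In vehicle pools 3302 features were called, with 13985 after centring on the feature median, 2154 on the receptor median, 1261 of 6767 under the background filter and 2138 to 3867 with 1 pool left out. In odor pools the 4338 calls became 11192, 2816, 2197 and 2689 to 4255, and over all pools the 6965 calls became 16234, 4029 and 2983. With the replicate block by number, 1 feature each was called for odor in titled GFP− and GFP+ cells, where 0 were called without it. For the mean of fractions the 1 call became 0 on receptor-median centring, 2 under the filter, 6 with the block and 0 to 1 with 1 pool left out.

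Centring on the receptor median turned the odor difference of Ano2 (−0.064), Adcy3 (−0.17) and Rtp2 (−0.10), and the difference over all pools of Pde4a (−0.064), Cnga2 (−0.17), Ric8b (−0.12), Adcy3 (−0.10), Slc24a4 (−0.044) and Rtp2 (−0.0014). This centring shifted the fraction difference of every feature by the same amount, −0.47 in odor and −0.27 in vehicle pools. Positive differences smaller than that shift therefore changed sign. Beyond such shifts, the features lost to the filter and the pools left out, the cause of changes between settings was not tested. Signal over background limits Olfr16 most on vehicle arrays titled GFP−, where it exceeded the negative control line on 2 of 4.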
